A study of Mus musculus with 8 samples.

Results

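The receptors for the cytokines IL-3, IL-5 and GM-CSF are built from 5 chains in the mouse, and their transcripts were followed in bone marrow derived mast cells (BMMCs) with and without deletion of Mettl3. The members were chosen by name and not by their values, although earlier results of these data were known. They were the cytokine-binding alpha chains Il3ra, Il5ra and Csf2ra, and the beta chains Csf2rb and Csf2rb2. All 5 were found among the 56748 gene IDs of each table, and all 5 were among the 14942 genes that passed the filter on low counts. RNA-seq was performed on resting BMMCs, mast cells grown from the bone marrow of C57BL/6 mice aged 6 to 8 weeks in medium with IL-3 and without the Kit ligand SCF. In the 4 Mettl3-RNP libraries the cells had received complexes of the nuclease Cas9 with guide RNAs against Mettl3, the enzyme that places the m6A mark, a methyl group on adenosines, in mRNA. In the 4 Pulsed libraries the cells had been mock transfected, so the control had received no Cas9 complex. The edited cells were not cloned or sorted and the depletion was incomplete, so a Mettl3-RNP library holds a mixture of edited and unedited cells.

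An alpha chain binds its cytokine, and a beta chain carries the signal through the kinase JAK2 to STAT5, to PI3 kinase and to the Ras-ERK pathway. Csf2rb encodes the common beta chain, which serves IL-3, IL-5 and GM-CSF alike. Mice carry an additional beta gene, Csf2rb2, whose product serves only the IL-3 receptor. IL-3 drives the growth and survival of mast cells in culture, GM-CSF acts mainly on granulocytes and macrophages, and IL-5 is best known for its action on eosinophils.

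The beta genes lie next to each other on chromosome 15 (GRCm39), with Csf2rb2 (ENSMUSG00000071714) on the minus strand at chr15:78166707-78189921 and Csf2rb (ENSMUSG00000071713) on the plus strand at chr15:78209952-78238047. They are close copies, so it matters for every value below how well reads can be told apart. Over 2629 aligned bases, the coding sequences were identical at 2506 positions (95.3%), with the lowest identity in the second of 10 equal stretches counted from the start codon (89.0%) and the highest in the ninth (99.2%). The stretch of 60 aligned coding bases with the most differences is printed below in the 5′ to 3′ direction of each gene, with the 13 differing bases in capitals. It lies within coding bases 304 to 363 of Csf2rb (chr15:78223093-78223152, plus strand) and 307 to 366 of Csf2rb2 (chr15:78178579-78178638, minus strand), and shows where a read names its gene without doubt.
Csf2rb: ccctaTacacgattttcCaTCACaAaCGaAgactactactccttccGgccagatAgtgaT
Csf2rb2: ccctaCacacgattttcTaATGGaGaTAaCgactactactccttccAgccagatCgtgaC

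The opposite case is the longest identical run of 242 coding bases, coding bases 2083 to 2324 of both genes, at chr15:78232777-78233018 on the plus strand in Csf2rb and at chr15:78168830-78169071 on the minus strand in Csf2rb2. A read from inside this run cannot be given to either gene by its sequence.
Csf2rb and Csf2rb2: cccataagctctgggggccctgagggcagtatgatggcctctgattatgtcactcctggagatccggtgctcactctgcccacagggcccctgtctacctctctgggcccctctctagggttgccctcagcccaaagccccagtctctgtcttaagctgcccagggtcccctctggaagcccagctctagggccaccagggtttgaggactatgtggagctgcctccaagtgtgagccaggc

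Of all 50-base words of the coding sequence, a length equal to 1 read of a pair, 26.0% of those of Csf2rb also occur in Csf2rb2 and 26.5% of those of Csf2rb2 also occur in Csf2rb. For 100-base words, a length equal to both reads of a pair laid end to end, the shares were 11.0% and 11.3%. With untranslated exons included, the shares for 50-base words were 12.3% of the words of Csf2rb and 18.4% of those of Csf2rb2. How reads with several matches were counted is not stated, so the split between the beta genes carries this uncertainty in all libraries.

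The alpha genes lie apart from each other. Il3ra (ENSMUSG00000068758) is at chr14:8113752-8123508, Csf2ra (ENSMUSG00000059326) at chr19:61212395-61216892 and Il5ra (ENSMUSG00000005364) at chr6:106686622-106725998, all on the minus strand. No 50-base word of Csf2ra occurred in a transcript of another gene, and the shares were 0.425% for Il3ra and 1.19% for Il5ra. Opposite-strand genes overlap 109 bases (3.45%) of the exons of Il3ra, and no annotated gene overlaps the exons of Csf2ra or Il5ra.

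The libraries held 32643260 to 45324826 counts each. Mettl3 itself was at 8.89 ± 3.05 CPM (counts per 1000000, SD, n = 4) in Mettl3-RNP and 22.0 ± 7.29 CPM (SD, n = 4) in Pulsed libraries, with a log2 fold change of -1.30 (edgeR quasi-likelihood test, adjusted p = 0.00543) and lower values in 4 of 4 pairs. A gene on the opposite strand overlaps 34.1% of the exons of Mettl3. Libraries with the same replicate number resembled each other, and 57.7% of the variance of all genes lay on a component that set both libraries of replicate 3 apart from the others. The mast cell markers fixed for this work summed to 46532 to 62976 CPM in Mettl3-RNP and 50358 to 68864 CPM in Pulsed libraries, while Cpa3, a mast cell protease and the largest of them, fell from a mean of 30425 ± 7703 to 23272 ± 4921 CPM (log2 fold change -0.37, edgeR adjusted p = 0.0328, lower in 4 of 4 pairs). It was the 1 called of 11 tested, where 1.39% of all tested genes were called lower, and 6 of the 11 were fitted higher and 5 lower. The neutrophil markers stayed at or below 0.472 CPM in sum. The 2 groups differ in Cas9 exposure as well as in Mettl3, and these cannot be told apart.

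The beta chains stood among the most abundant transcripts of these cells, and the alpha chains were far below them. Csf2rb2 ranked between 3 and 7 by counts among all genes and held 0.775% to 0.928% of all counts in Pulsed libraries. Csf2rb ranked between 9 and 18 and held 0.362% to 0.523% of the counts in Pulsed libraries. The Wilson 95% interval of the share of either chain in a library reached at most 0.00357 percentage points to each side, which covers counting error only.

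Levels per length were compared as TPM, counts divided by the length of the exons and scaled to an equal total in each library. In Pulsed libraries Csf2rb2 was at 6994 ± 712 TPM (SD, n = 4) and Csf2rb at 2480 ± 425 TPM (SD, n = 4). Il3ra, the alpha chain for the cytokine in the medium, was at 106 ± 15.2 TPM (SD, n = 4). The GM-CSF receptor chain Csf2ra was at 27.3 ± 2.00 TPM and the IL-5 receptor chain Il5ra at 3.18 ± 2.33 TPM (SD, n = 4 each). This order, Csf2rb2, Csf2rb, Il3ra, Csf2ra and Il5ra, held in 8 of 8 libraries, and the ranges of neighbouring chains over the 8 libraries did not overlap.

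**Figure D1:**
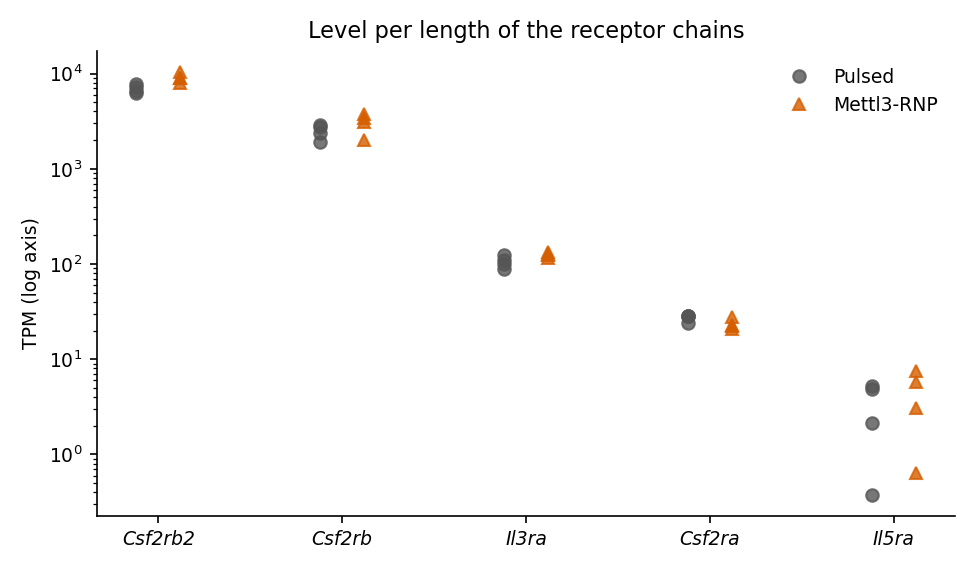
TPM of each receptor chain (log axis) in the 4 Pulsed (circles) and 4 Mettl3-RNP (triangles) libraries, 1 symbol per library. Csf2rb2 lies between 6310 and 10422 TPM and Il5ra between 0.379 and 7.58 TPM, and no chain's range meets that of its neighbour.

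Both beta chains together exceeded Il3ra per length in all 8 libraries, by 65.6 to 120 times. The excess over Csf2ra ranged from 292 to 540 times. Within the beta pair, Csf2rb2 was 2.85 ± 0.29 times as high as Csf2rb per length in Pulsed libraries (SD, n = 4). With the length of the longest transcript in place of all exons this ratio was 1.92 ± 0.20, since the annotated exons of Csf2rb sum to 7277 bases and its longest transcript has 4900.

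Csf2rb2, the beta chain of the IL-3 receptor alone, was higher after Mettl3 deletion. It was at 11270, 10417, 10549 and 10182 CPM in Mettl3-RNP replicates 1 to 4. In Pulsed replicates 1 to 4 it was at 8858, 8159, 8731 and 8518 CPM. Each Mettl3-RNP library was above every Pulsed library, a separation shared by 2.03% of all tested genes. The means were 10604 ± 469 and 8566 ± 306 CPM (SD, n = 4), and the log2 fold change was 0.31 (1.24-fold) with a standard error of 0.0661 and an adjusted p of 0.0486 in the edgeR quasi-likelihood test. Csf2rb2 was the 1 of 5 chains that passed the threshold of 0.05, and it did so narrowly. Over all tested genes, 2.35% passed as higher in Mettl3-RNP and 1.39% as lower.

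The direction of Csf2rb2 was the same in all 15 other settings tried, with log2 fold changes of 0.26 to 0.34, but the call was lost in 10 of them. Of the settings that kept the call, 1 repeats the reported fit and could not differ from it. Leaving out replicate 1, 2, 3 or 4 gave adjusted p-values of 0.174, 0.215, 0.101 and 0.130 (edgeR). With the counts of both beta genes summed into 1 gene so that the split of shared reads does not matter, the log2 fold change was 0.28 with an adjusted p of 0.0641 (edgeR).

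Csf2rb, the common beta chain, did not pass the threshold. It was at 6228, 5517, 4080 and 5990 CPM in Mettl3-RNP replicates 1 to 4. In Pulsed replicates 1 to 4 it was at 4994, 4612, 4075 and 4875 CPM. The groups overlapped, because both libraries of replicate 3 were the lowest of all and nearly equal. The means were 5454 ± 962 and 4639 ± 409 CPM (SD, n = 4), with a log2 fold change of 0.22, a standard error of 0.0787 and an adjusted p of 0.150 in the edgeR test. The Mettl3-RNP library was higher in 4 of 4 pairs, which also held for 15.7% of all tested genes, with a log2 difference in pair 3 of only 0.0019.

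**Figure D2:**
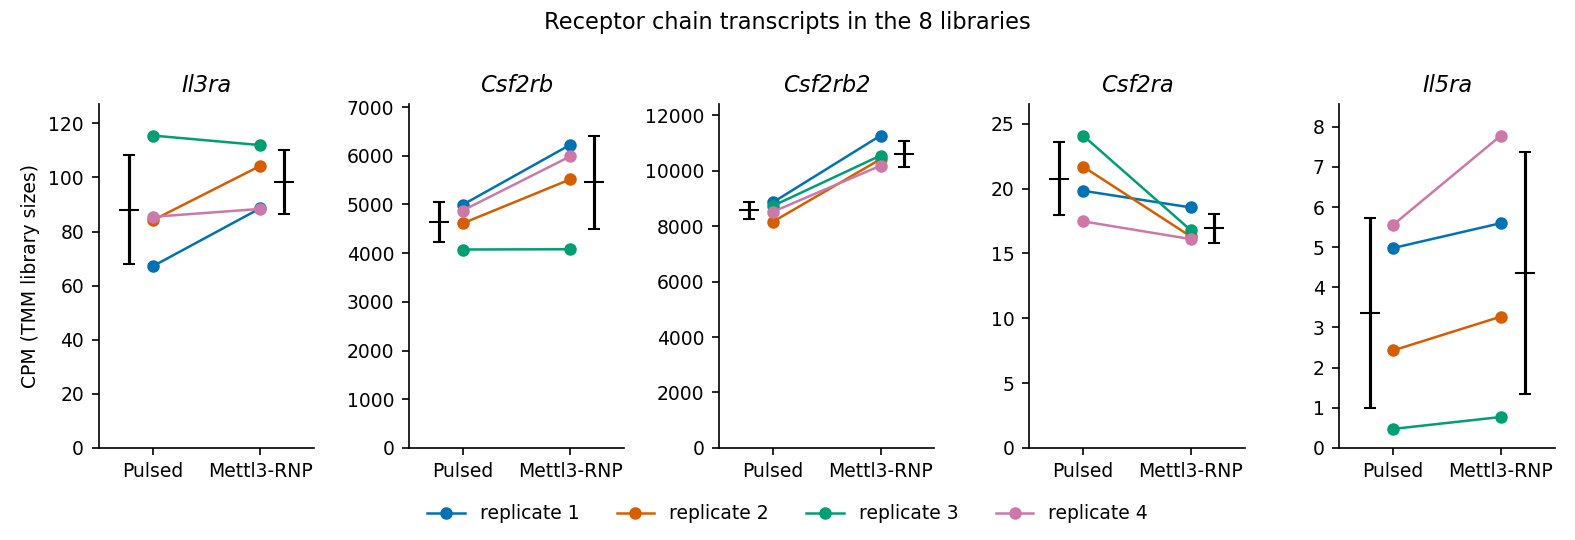
CPM with TMM library sizes (linear axes from 0) of the 5 receptor chains in Pulsed and Mettl3-RNP libraries, with lines joining libraries of the same replicate number and bars giving the mean and SD of 4 libraries. The Csf2rb2 libraries separate by group, with 8159 to 8858 CPM in Pulsed and 10182 to 11270 CPM in Mettl3-RNP. Il5ra varies mainly with the replicate number, although replicates 1 and 4 overlap.

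Il3ra encodes the alpha chain that binds IL-3, the cytokine these cells were grown in. It was at 88.6, 104, 112 and 88.4 CPM in Mettl3-RNP replicates 1 to 4. In Pulsed replicates 1 to 4 it was at 67.1, 84.1, 115 and 85.4 CPM. The groups overlapped, with replicate 3 highest in both, and the Mettl3-RNP library was higher in 3 of 4 pairs. The log2 fold change was 0.18 with a standard error of 0.0901 and an adjusted p of 0.290 in the edgeR test, and it was 0.07 without replicate 1.

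Csf2ra, the alpha chain that binds GM-CSF, was the only chain with a lower mean in Mettl3-RNP than in Pulsed libraries. It was at 18.5, 16.3, 16.8 and 16.1 CPM in Mettl3-RNP replicates 1 to 4. In Pulsed replicates 1 to 4 it was at 19.8, 21.7, 24.1 and 17.5 CPM. The groups overlapped through Mettl3-RNP 1 and Pulsed 4, while the Mettl3-RNP library was lower in 4 of 4 pairs, as it was for 16.0% of all tested genes. The log2 fold change was -0.29 with a standard error of 0.104 and an adjusted p of 0.152 in the edgeR test, which is not past the threshold.

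Il5ra, the alpha chain that binds IL-5, was the least abundant chain and varied most between replicate numbers. It was at 5.60, 3.27, 0.769 and 7.78 CPM in Mettl3-RNP replicates 1 to 4. In Pulsed replicates 1 to 4 it was at 4.98, 2.43, 0.472 and 5.56 CPM. Replicate 3 was lowest in both groups, with 23 counts in Mettl3-RNP and 19 in Pulsed, and the highest Pulsed library stood 11.8 times above the lowest. Within each pair the Mettl3-RNP library was higher (4 of 4), with a log2 fold change of 0.41, a standard error of 0.157 and an adjusted p of 0.173 in the edgeR test.

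**Figure D3:**
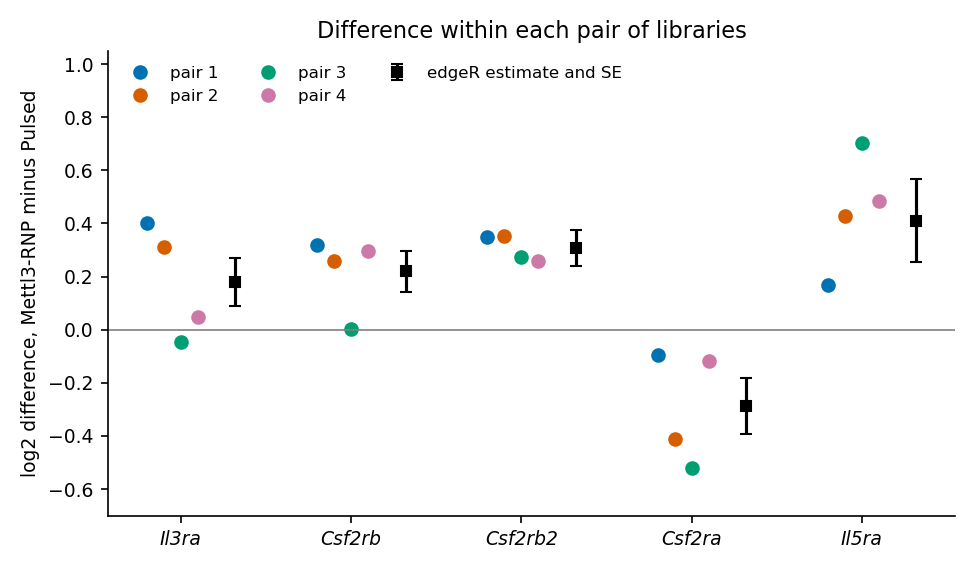
Log2 difference of each chain between the Mettl3-RNP and the Pulsed library of the same replicate number (circles), and the edgeR estimate with its standard error (black squares). The 4 pairs of Csf2rb2 lie between 0.26 and 0.35, the 4 pairs of Csf2ra between -0.52 and -0.10, and pair 3 of Csf2rb near 0.

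The chains differed in what their values followed. For Csf2rb2, 90.5% of the variance of log2 CPM over the 8 libraries lay between the groups and 7.80% between replicate numbers. For Il5ra, 96.9% lay between replicate numbers and 2.63% between the groups. Il3ra and Csf2rb were nearer to Il5ra, with 71.8% and 65.9% between replicate numbers, and Csf2ra lay between these patterns, with 53.8% between the groups and 24.2% between replicate numbers. In the libraries of replicate 3, Csf2rb and Il5ra were below all 6 other libraries and Il3ra was above all 6. Kit, the receptor for SCF, resembled the replicate-driven chains, with 85.6% between replicate numbers, a log2 fold change of 0.08 and an adjusted p of 0.626 in the edgeR test.

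Ratios within a library need no scaling between libraries and were compared over the 4 pairs by an exact permutation test that flips the sign of each paired difference (two-sided). With 4 pairs its smallest p is 2 of 16 sign assignments, so it cannot pass 0.05. The log2 ratio of Csf2ra to both beta chains was -9.89 ± 0.09 in Mettl3-RNP and -9.32 ± 0.24 in Pulsed libraries (SD, n = 4). The paired log2 differences were -0.43, -0.73, -0.71 and -0.39, all toward a lower ratio in Mettl3-RNP, and the exact test gave the smallest p it can reach (adjusted over 4 ratios, p = 0.375). Both parts of the ratio contributed about equally, with fitted log2 fold changes of -0.29 for Csf2ra and 0.28 for the summed beta chains.

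The other ratios were less even. The log2 ratio of Csf2rb2 to Csf2rb differed by 0.09 ± 0.13 between Mettl3-RNP and Pulsed (SD over 4 pairs, higher in 3, exact p = 0.375). Il3ra to both beta chains differed by -0.10 ± 0.15 (SD over 4 pairs, lower in 3, exact p = 0.375). Il5ra to both beta chains differed by 0.16 ± 0.28 (SD over 4 pairs, higher in 3, exact p = 0.375). All 3 differences were smaller than their spread over the pairs and moved with the pairs included. With each pair left out in turn they ranged from 0.03 to 0.13, from -0.16 to -0.06 and from 0.05 to 0.27, and without replicate 3 they were 0.03, -0.06 and 0.05. Of the 4 ratios, that of Csf2ra to the beta chains was the one that moved the same way in every pair.

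**Figure D4:**
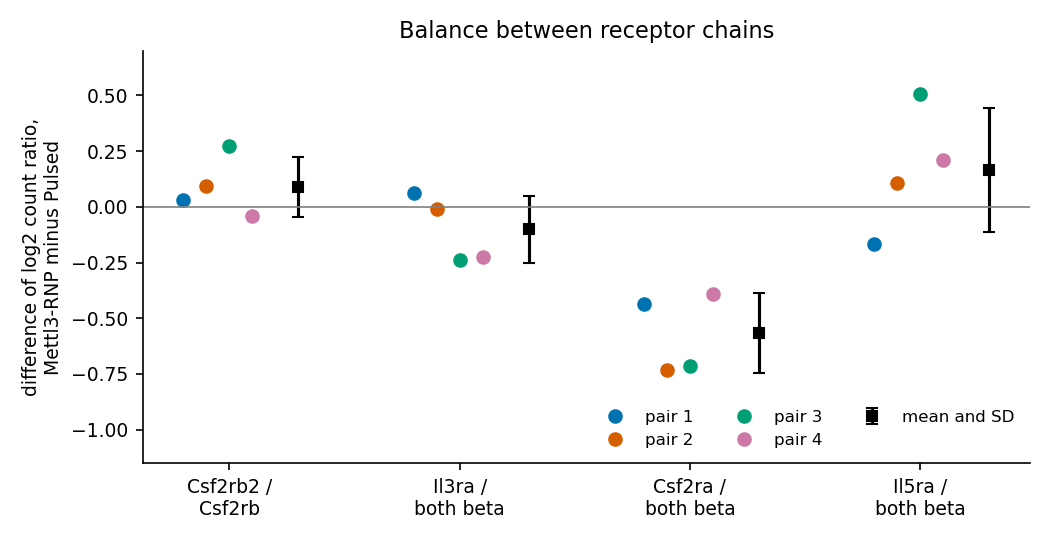
Difference of the log2 count ratio between the Mettl3-RNP and the Pulsed library of each pair (circles) for 4 ratios of receptor chains, with the mean and SD of the 4 pairs (black squares). The ratio of Csf2ra to both beta chains is lower in every pair, between -0.73 and -0.39, and the other ratios have pairs on both sides of 0.

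Csf2rb2 made up 64.4%, 65.4%, 72.1% and 63.0% of the summed beta counts in Mettl3-RNP replicates 1 to 4. The shares in Pulsed replicates 1 to 4 were 63.95%, 63.9%, 68.2% and 63.6%. Replicate 3 held the highest share in both groups, and the groups overlapped otherwise. The Wilson 95% interval of Mettl3-RNP 3 ran from 71.98% to 72.24%, which covers counting error only and not the assignment of reads that match both genes.

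The genes whose log2 CPM followed a chain most closely over the 8 libraries were sought among 11985 genes, as a description, since all points share their libraries and replicate numbers. For Csf2rb2 the highest Pearson correlations were with Lppos (r = 0.981), Csad (0.972) and Sel1l (0.960). For Csf2rb they were with Inka2 (0.978), Esr1 (0.975) and Ifnar1 (0.969). Il5ra was closest to Nemp2 (0.996), Zfp667 (0.995) and Ncoa5 (0.994). For Il3ra the closest were Med29 (0.953), Mthfd2l (0.952) and Tlnrd1 (0.948), and for Csf2ra 6230400D17Rik (0.965), Dnaja4 (0.958) and Gsk3a (0.941). Among the chains themselves, Csf2rb went with Il5ra (r = 0.85, n = 8) more closely than with its copy Csf2rb2 (0.52, n = 8), and Il3ra ran against Il5ra (-0.73, n = 8).

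The ligands of these receptors were nearly absent from the resting cells. Il3 had 14 counts in Mettl3-RNP 3, 1 count in Pulsed 3 and none in the other 6 libraries. Csf2, which encodes GM-CSF, had at most 8 counts in a Mettl3-RNP library and at most 10 in a Pulsed library, and Il5 at most 3. None of the 3 passed the filter on low counts, and the depth cannot show a difference between the groups.

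Of 55 genes listed for the receptors' ligands, kinases, adapters, downstream pathways and targets, 52 were tested, and 2 passed as higher and 1 as lower, where 2.35% and 1.39% of all tested genes did. The median log2 fold change was 0.03, against -0.0013 over all tested genes. These counts are too small to set the list apart from that background. Pik3r5, a regulatory subunit of PI3 kinase gamma, was at 3.39 ± 2.68 CPM in Mettl3-RNP and 1.65 ± 1.55 CPM in Pulsed libraries (log2 fold change 1.08, edgeR adjusted p = 0.0423). Pik3cg, the catalytic subunit of the same enzyme, rose with a log2 fold change of 0.35 (edgeR adjusted p = 0.0489). Jak2, the kinase bound to the beta chains, was at -0.11 (adjusted p = 0.453), and Stat5a and Stat5b, the transcription factors it activates, were at 0.08 (adjusted p = 0.517) and 0.08 (adjusted p = 0.525). None of the 14 adapters, phosphatases and ubiquitin ligases passed, with 10 fitted higher and 4 lower. Nearest to the threshold were the adapter protein Ywhaz (log2 fold change -0.33, edgeR adjusted p = 0.0538) and the phosphatase Ptpn6 (-0.45, adjusted p = 0.0665), and Cish, a feedback inhibitor induced by STAT5, was at 0.27 (adjusted p = 0.165). None of the 12 listed targets of IL-3 signalling passed either, with 4 fitted higher and 8 lower. The survival genes among them pointed both ways, with log2 fold changes of 0.30 for Mcl1 (edgeR adjusted p = 0.0670), 0.27 for Bcl2l1 (adjusted p = 0.0959) and -0.39 for Bcl2 (adjusted p = 0.0900).

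Other receptors were set beside the chains to see whether they alone moved. Of 23 other type I cytokine receptor genes 17 were tested, and 1 passed as higher and 1 as lower, where 2.35% and 1.39% of all tested genes did. Il12rb1, the receptor chain shared by IL-12 and IL-23, rose from a mean of 13.4 ± 3.56 to 21.3 ± 1.90 CPM (log2 fold change 0.71, edgeR adjusted p = 0.0326). Crlf2, the receptor for TSLP, fell from 181 ± 47.3 to 128 ± 42.3 CPM (log2 fold change -0.53, edgeR adjusted p = 0.0326). The median log2 fold change of the 5 chains was 0.22. That of the 21 other cytokine and growth factor receptors tested was also 0.22, and that over all tested genes was -0.0013. The median of the other receptors is loose, since Il6ra, Osmr, Ghr and Flt3, all fitted higher, had standard errors of 1.01 to 1.34. Their Mettl3-RNP counts came mostly from replicate 2 (85, 117, 83 and 87), as did those of Lepr (90), fitted lower. These medians cannot show whether the chains alone moved.

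**Figure D5:**
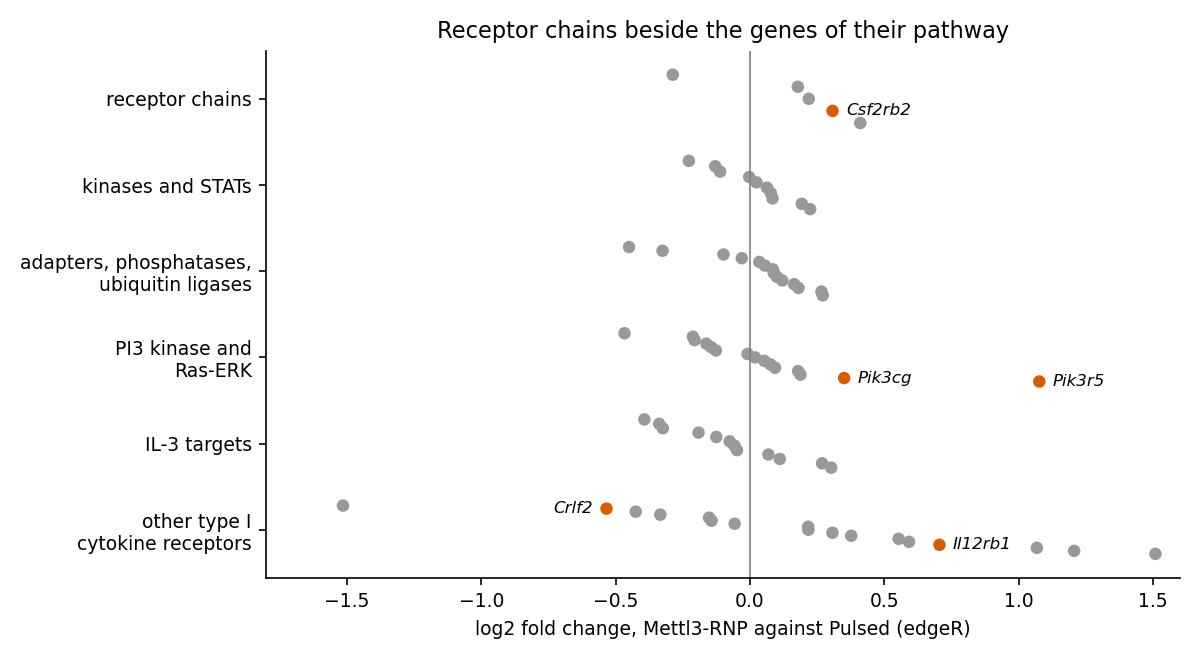
Log2 fold change (edgeR, Mettl3-RNP against Pulsed) of the receptor chains, the tested and reported genes of their pathway in 4 lists and the other type I cytokine receptors, with genes at an adjusted p of 0.05 or less in orange and named. Csf2rb2 (0.31) is the only receptor chain called, and Pik3r5 (1.08) lies farthest from 0 among the named genes.

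Markers of other cell types that carry these receptors were read beside the chains. Eosinophil markers, of interest for Il5ra, summed to 2.25 to 4.04 CPM in Mettl3-RNP and 4.77 to 8.66 CPM in Pulsed libraries, with the granule genes Epx, Prg3 and Ear1 at 0 in every library, and 2 of the 9 markers were tested. Siglecf fell (log2 fold change -1.50, edgeR adjusted p = 0.0199) and Ccr3 was at -0.59 (adjusted p = 0.216). Their part in the Il5ra values was not tested. Macrophage markers, of interest for Csf2ra, summed to 4.71 to 11.0 CPM in Mettl3-RNP and 7.75 to 11.6 CPM in Pulsed libraries, with Csf1r, C1qa and C1qb each below 1 CPM on average. Lyz2, which held most of the sum, was at a log2 fold change of 0.02 (edgeR adjusted p = 0.977), and Adgre1 fell (-1.13, adjusted p = 0.0435). Their part in the Csf2ra values was not tested. Basophil markers summed to 3787 to 4737 CPM and 4301 to 5320 CPM, carried mainly by Ifitm1, Itga2b and Cd200r3. The sum follows these genes, and whether it reflects basophils was not tested. Of the 7 tested, Ifitm1 (log2 fold change -0.60, edgeR adjusted p = 0.0471) and Il18rap (-0.79, adjusted p = 0.0324) fell, while Itga2b was at 0.18 (adjusted p = 0.163) and Cd200r3 at 0.25 (adjusted p = 0.151), higher in 4 of 4 pairs each. Over all tested genes 1.39% were called lower, and the marker lists are too short to be set apart from that share. The basophil proteases were low, with Mcpt8 at 1.88 ± 0.92 and 2.56 ± 1.42 CPM and Prss34 at 0.702 ± 0.461 and 1.13 ± 0.69 CPM (SD, n = 4) in Mettl3-RNP and Pulsed libraries. Dendritic cell markers summed to 0.673 to 3.85 CPM and 0.0822 to 1.69 CPM. In bulk RNA, fewer cells of a type and less RNA per cell cannot be told apart.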

How the data were processed

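Poly-A RNA of resting BMMCs was sequenced as 50-base read pairs, 4 libraries per group. Per the submitters' notes the authors used FastQC 0.11.9, HISAT2 2.2.1 on GRCm39 and featureCounts 2.0.1, and deposited whole-number counts per Ensembl gene without normalization. Strand and multimapping settings are not given in the sources used here. GENCODE M39 named 56017 of 56748 IDs (98.7%). The members and lists were chosen with earlier results of these data known.

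Genes were filtered with filterByExpr (about 10 counts in 4 libraries), scaled by TMM and tested with the quasi-likelihood test of edgeR 4.0.16 in R 4.3.3, with a block for the replicate number and Benjamini-Hochberg adjustment. The call was an adjusted p of at most 0.05, with no minimum fold. The fit recovered known changes of 1.5-fold or more, up or down, in simulated counts. Smaller changes, such as those fitted for the chains, were not simulated. TPM used the union of exons. Count ratios had 0.5 added to each count. Coding sequences from the reference genome were aligned with Biopython 1.88.

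The series text names 4 mice for 8 samples, so pairing by number is an inference from it. After the group means were subtracted, libraries with equal numbers correlated at 0.825, 0.489, 0.879 and 0.765, and the highest correlation of differently numbered libraries was 0.183 (11985 genes). Libraries of a group differed beyond sampling noise (chi-square over its degrees of freedom, 59.8 or more). P-values of the blocked fits measure the spread left among these samples after the replicate number was taken out. Since reads carried no molecular identifiers, intervals cover counting error only.

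Named were the 5 chains, Mettl3, Kit, the ligands, called list genes and the 3 genes with the pattern most like each chain. Jak2, Stat5a, Stat5b, Cish, Ywhaz, Ptpn6, Mcl1, Bcl2l1, Bcl2 and the marker genes named fall outside this rule and were chosen after their values had been seen. Ywhaz and Ptpn6 were chosen for their adjusted p, and the other listed pathway genes for their roles. The marker genes named include all that were called. Alternatives were the block, each pair left out, scaling, filters, DESeq2 1.42.0, limma 3.58.1, the estimate of the spread, both beta genes summed, and transcript length. The result of 1 listed gene is not reported here, although it is included in the counts. The study's methods mention a batch correction without naming the batch, and none was applied here beyond the block.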

Additional observations from a re-analysis of the deposited data

Results flagged for a closer look

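Csf2rb2 held 68.2% of the summed beta chain counts in Pulsed 3, against 63.6% to 63.95% in the other 3 Pulsed libraries. The gap to the nearest library was 0.923 of the whole range, above the 95% critical value of Dixon's test for 4 samples. Of 12 groups of 4 values examined this was the only one, and about 1 in 20 is flagged by chance. Mettl3-RNP 3, with the same replicate number, had the highest share of its group, 72.1%.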

How the results depend on the processing

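Leaving out the replicate block took the log2 fold change of Csf2rb2 to an adjusted p of 0.999 (0.31), and the called chains, pathway genes and other receptors from 1, 3 and 2 to 0, 0 and 0. No gene of 14942 was called without the block, and 579 had an unadjusted p of 0.05 or less. Leaving out each pair gave 0.26 to 0.34 for Csf2rb2, 0 to 0 chains, 0 to 2 pathway genes and 0 to 2 other receptors called, in fits that called 2.18%, 0.174%, 2.57% and 2.23% of all genes without replicates 1 to 4. Csf2rb2 was not called with DESeq2 size factors (0.31, adjusted p = 0.0509), no filter (0.32, 0.112), at least 10 counts in every sample (0.31, 0.0692), the newer edgeR estimate of the spread (0.31, 0.105, chosen after seeing the data) or summed with Csf2rb (0.28, 0.0641), with 0 chains called in each. It stayed called with library size only, the DESeq2 Wald test, limma-voom and batch removal before limma-trend. Batch removal, which does not charge the replicate number to the residual degrees of freedom, called 30.5% of all genes, against 3.74% in the reported fit. It also called Csf2rb (0.22, adjusted p = 0.0177), Csf2ra (-0.29, 0.0156) and Il5ra (0.43, 0.00706), with 4 chains, 23 pathway genes and 10 other receptors in all. Pathway genes called were 6 with 10 counts in every sample and 10 with DESeq2, and other receptors 5 with DESeq2 and 4 with the newer estimate, settings that called 7.67%, 11.7% and 4.96% of all genes. The older edgeR estimate, listed as an alternative, is the default of this version and gave equal values. Unpaired, the ratio of Csf2ra to both beta chains had an exact p of 0.0286 (adjusted, 0.114). With the longest transcript, Csf2rb2 in Pulsed was at 5374 in place of 6994 TPM. No log2 fold change of a chain reversed. Beyond what each setting changes by construction, the cause was not tested. With 4 pairs and 19 to 273 counts, Il5ra is the chain least well measured.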
